A study of Mus with 4 samples.

Results

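The genes described here are 40 genes of the primary cilium and of cystic kidney disease, named as a list of polycystins, intraflagellar transport proteins, ciliary motors, the BBSome, ciliary GTPases, transition zone proteins and Hedgehog effectors. Probes were taken for a gene wherever the transcript accession of a non-control probe led to its symbol. This found 36 of the 40 genes, held by 65 probes, among 16358 genes matched on the array, and *Bbs1*, *Mks1*, *Cep290* and *Gli2* were not analysed here.

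The RNA came from Six2+ nephron progenitors that were FACS-isolated by their *Six2*-driven Cre-EGFP from mouse kidneys on E15.5. *Mut* cells carried the *Six2* CreEGFP transgene and PRR flox/flox, so that the prorenin receptor gene (*Atp6ap2*) is targeted in the *Six2* lineage, and *WT* cells carried the same transgene and PRR +/+. Each RNA was from a pool of kidneys, and on arrays 1, 2 and 3 a *Mut* pool labelled with Cy3 was set against the *WT* pool of the same number labelled with Cy5. A further array, called the *WT* vs *WT* array, set *WT* pool 2, labelled with Cy3, against *WT* pool 1, labelled with Cy5. The study asked how gene expression in these progenitors depends on PRR, in a model whose kidneys become small and cystic.

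The primary cilium is a single antenna-like projection of the cell surface, built on a basal body. Proteins are carried to its tip by the IFT-B particle with kinesin-II and back by the IFT-A particle with the dynein-2 motor, while the transition zone and the BBSome control what enters and leaves. In the kidney, polycystins sit on the cilium of tubule cells, and inherited loss of polycystins, fibrocystin or many cilium proteins gives cystic kidneys. In vertebrates, Hedgehog signals are also received and passed on at the cilium, through PTCH1, SMO, SUFU and the GLI factors.

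On arrays 1 to 3 the share of probes well above background was 45.1% to 49.5% in Cy3 and 54.1% to 58.3% in Cy5, and 0 spots were saturated. The dyes were never exchanged on these arrays, so genotype and dye cannot be told apart on them, and the *WT* vs *WT* array gives the size of a dye or pool difference without a difference of genotype. The probe of *Atp6ap2* had a log2 *Mut*/*WT* of -0.08, -0.19 and -0.25 on arrays 1, 2 and 3, averaging -0.17 (SE 0.055, adjusted P = 0.0351, limma), which passed the adjusted P as lower. Its log2 Cy3/Cy5 on the *WT* vs *WT* array, with no difference of genotype, was as low at -0.19, and with a dye term its *Mut*/*WT* was 0.017. *Mut* and *WT* could thus not be told from each other by it, and every direction given here rests on the dye labels. Nothing in the labels says whether the pools came from separate litters, so P values measure only the spread between these pools. On arrays 1 to 3 all 11 nephron progenitor markers stood well above background in *WT*, and 10 of 11 did in *Mut*. Of these markers 5 were lower in *Mut* at an adjusted P under 0.05 (limma), *Six2*, *Osr1*, *Meox1*, *Sall1* and *Crym*, and 2 were higher, where 33% of all genes passed in either direction by their brightest probe. Their summed signal, as a log2 value, was 14.70 to 14.80 in *Mut* and 14.85 to 14.93 in *WT* on arrays 1 to 3, and for *WT* pool 2 in Cy3 on the *WT* vs *WT* array it was 14.76, within the *Mut* range. Of the markers of other cells, 6 of 8 for differentiating nephron, 6 of 10 for stroma and 3 of 6 for erythroid cells were higher in *Mut* at an adjusted P under 0.05 (limma), 3 of the stroma markers were lower, and 0 of 10 for ureteric bud and 0 of 7 for endothelium passed. The sum of the erythroid markers was 11.74 to 11.82 in *Mut* and 10.69 to 10.84 in *WT* on arrays 1 to 3, but 11.77 and 11.96 for *WT* pools 2 and 1 on the *WT* vs *WT* array, and 3 of these 6 markers were above background in neither channel. The sum of the differentiating nephron markers was 11.5 to 11.6 in *Mut*, 11.1 in each *WT* pool of arrays 1 to 3, and 11.6 in each pool on the *WT* vs *WT* array. The sum of the stroma markers was 13.2 to 13.3 in both genotypes and 13.3 and 13.4 on the *WT* vs *WT* array. In bulk RNA, fewer cells of a type and less RNA per cell cannot be told apart, and the part of other cells in the results below was not tested.

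The cilium genes were readily detected in these progenitors. Of the 65 probes, 45 (69.2%) were well above background in both channels on all of arrays 1 to 3, against 43.5% of all probes tested. At 4 probes *WT* was above background on all 3 arrays and *Mut* on none, at 6 *Mut* was so on some arrays only, 9 were above background in neither channel on any array, and 1 fell in none of these classes. The 9 were both probes of *Pkhd1*, 1 each of *Ift80*, *Dync2h1*, *Bbs7*, *Rpgrip1l* and *Sufu*, and the single probes of *Invs* and *Gli3*. *Pkhd1*, *Invs* and *Gli3* were thus not well above background by any probe. A signal also depends on the probe, so signals were compared between samples and not between genes.

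The log2 ratio of *Mut* (Cy3) to *WT* (Cy5) on arrays 1 to 3 was tested against 0 with limma over 41166 probes, and a probe was called at an adjusted P under 0.05 together with a change over 1.5-fold. Of the 65 probes 0 were called higher in *Mut*, where 0.551% of all probes were, and 1 was called lower, a probe of *Pkd2*, where 1.46% of all probes were. By the brightest probe of each gene, 0 of 36 genes were called by limma, and 0 passed an unadjusted P under 0.05 with the same fold. At the adjusted P alone, 9 probes of 8 genes were higher (13.8% of the 65, against 13.2% of all probes) and 19 probes of 17 genes were lower (29.2%, against 16.4% of all probes). Bright probes pass more often than dim ones, and among probes above background in both channels 8 of the 45 were higher (17.8%, against 22.4% of all such probes) and 13 lower (28.9%, against 25.7%). The median log2 *Mut*/*WT* over the 65 probes was -0.02, with an SD of 0.022 over the 3 arrays, and that over all probes was -0.00092. The ratios of single probes ran from -0.59 to 0.44. The median over the 65 probes was -0.38 with each array centred on its median in place of loess, where that of all probes was 0.0096, and 0.016 with a dye term. Of the 65 probes 69.2% were above background in both channels, against 43.5% of all probes, and probes of like signal were not compared. On the loess scale no ratio but that of 1 *Pkd2* probe passed both thresholds. With median centring the 19 lower probes stayed lower but 8 of the 9 higher probes turned lower, all but *Pkhd1*, so a direction given as higher below is that of the loess scale. Centring took the median of the 65 probes down to -0.38, so the lower probes staying lower is no support for their direction. With the log ratios deposited by the authors all 9 were higher and all 19 lower. Of the 28 probes past the adjusted P, 14 also passed whichever array was left out. Without array 1, 9 did not pass (*Pkhd1*, *Ift52*, *Ift57*, *Ift80*, *Ift88*, *Ift172*, *Ift122*, *Ttc8* and *Ptch1*), without array 2, 11 did not (both of *Ift20*, *Ift46*, *Ift57*, *Ift80*, *Ift88*, *Ift172*, *Ift122*, *Ift140*, *Ttc8* and *Nphp4*), and without array 3, 2 did not (*Pkhd1* and *Ift52*).

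**Figure D1:**
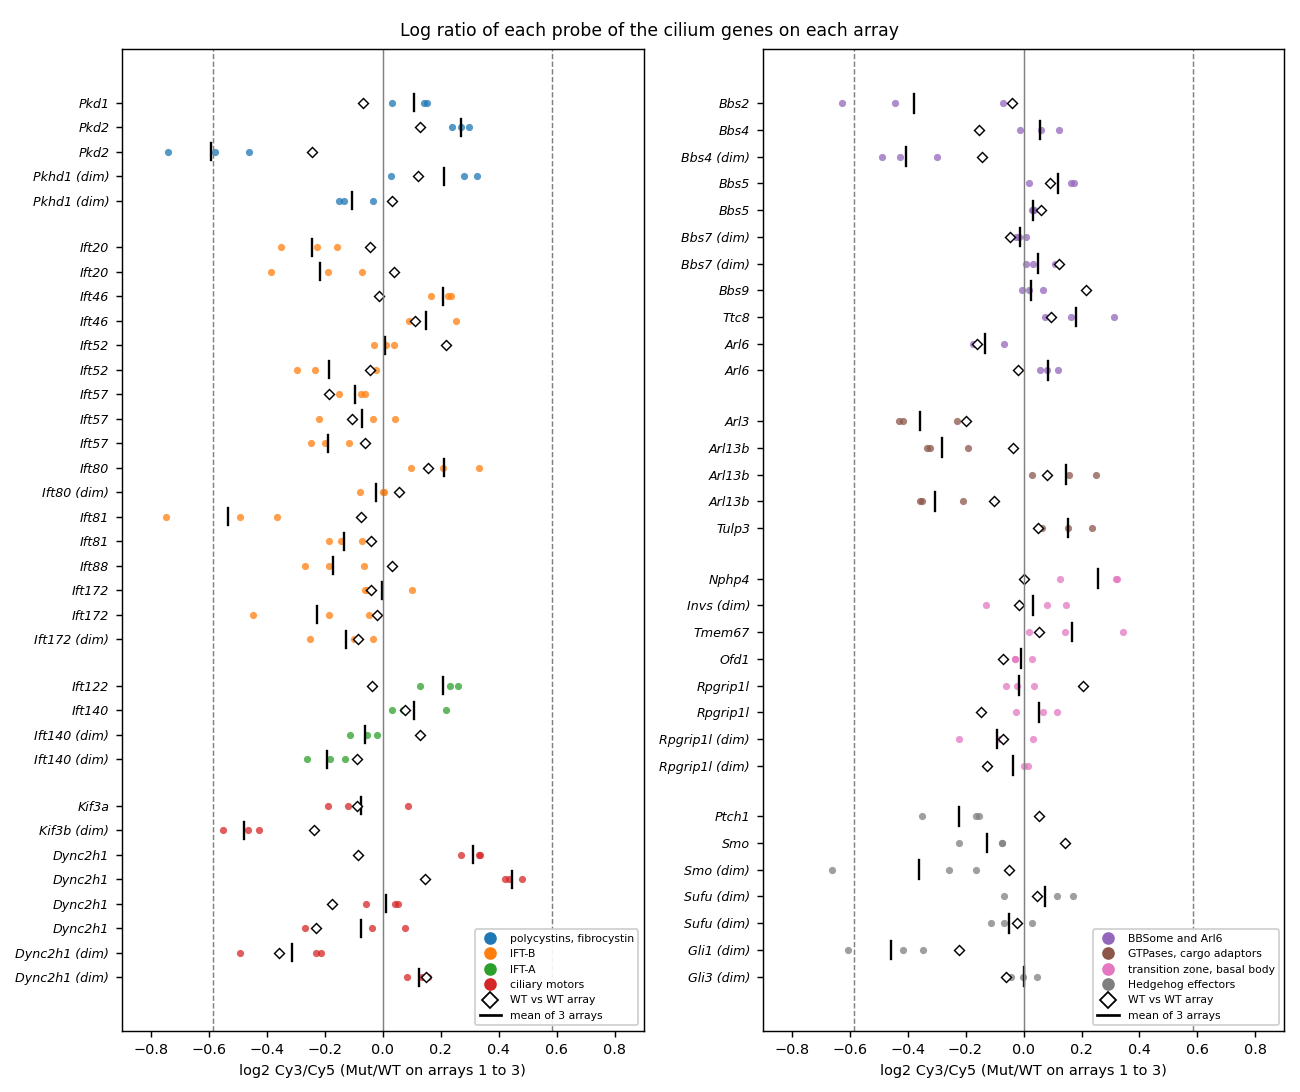
Log2 Cy3/Cy5 of the 65 probes, 1 row each, grouped by role from the polycystins (top left) to the Hedgehog effectors (bottom right). Filled points are arrays 1, 2 and 3 (*Mut*/*WT*), the black tick is their fitted mean, the open diamond is the *WT* vs *WT* array, dashed lines mark 1.5-fold, and "dim" marks probes not above background in both channels on all 3 arrays. Only the lower probe of *Pkd2* has a mean beyond a dashed line, and at 23 of 65 probes the diamond lies at least as far from 0 as the mean.

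*Pkd1* and *Pkd2* encode polycystin-1 and the cation channel polycystin-2, the proteins mutated in autosomal dominant polycystic kidney disease. For *Pkd1* the normalized log2 signal was 9.97, 9.97 and 9.78 in the *Mut* pools and 9.83, 9.82 and 9.75 in the *WT* pools of arrays 1, 2 and 3. Its log2 *Mut*/*WT* of 0.14, 0.15 and 0.03 averaged 0.11 and did not pass (SE 0.053, adjusted P = 0.151, limma). *Pkd1* signal was thus similar in both genotypes, with overlapping pools, and with median centring its ratio was -0.48.

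*Pkd2* was held by a pair of probes with the same transcript accession, and these moved in opposite directions. At the brighter probe (A_52_P234729) the log2 signal was 9.75, 9.80 and 9.66 in the *Mut* pools and 9.48, 9.50 and 9.42 in the *WT* pools. At the dimmer probe (A_51_P419613) it was 6.81, 6.82 and 7.11 in the *Mut* pools and 7.55, 7.40 and 7.57 in the *WT* pools. On arrays 1 to 3, every *Mut* pool thus lay above every *WT* pool at the former probe and below every *WT* pool at the latter. On the *WT* vs *WT* array, though, the dimmer probe gave 7.09 for *WT* pool 2, within the *Mut* range, and 7.33 for *WT* pool 1, below all the *WT* signals of arrays 1 to 3. The log2 *Mut*/*WT* was 0.27 (SE 0.051, adjusted P = 0.00217, limma) at the brighter probe and, with median centring, -0.30. At the dimmer probe it was -0.59 (SE 0.061, adjusted P = 4.05e-05, limma), a 1.51-fold lower signal and the one called change among the cilium probes. This probe lies just past the 1.5-fold limit, and its size depended on the processing. Its ratio was -0.52 without array 1, -0.98 with an offset of 0, -0.87 with median centring and -1.34 with the deposited log ratios, and it did not pass both thresholds in any of these. The *WT* vs *WT* ratios of these probes were 0.13 and -0.24. The level of *Pkd2* transcripts as a whole therefore has no single direction in these data.

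*Pkhd1* encodes fibrocystin, the protein of autosomal recessive polycystic kidney disease. Its probes had log2 *Mut*/*WT* ratios of 0.21 (SE 0.064, adjusted P = 0.0274, limma) and -0.11 (adjusted P = 0.152), with 0.32, 0.03 and 0.28 on arrays 1, 2 and 3 at the former and -0.15, -0.03 and -0.13 at the latter. These are ratios of signals at background level, since neither probe was well above background in any pool, and no fold is given.

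**Figure D2:**
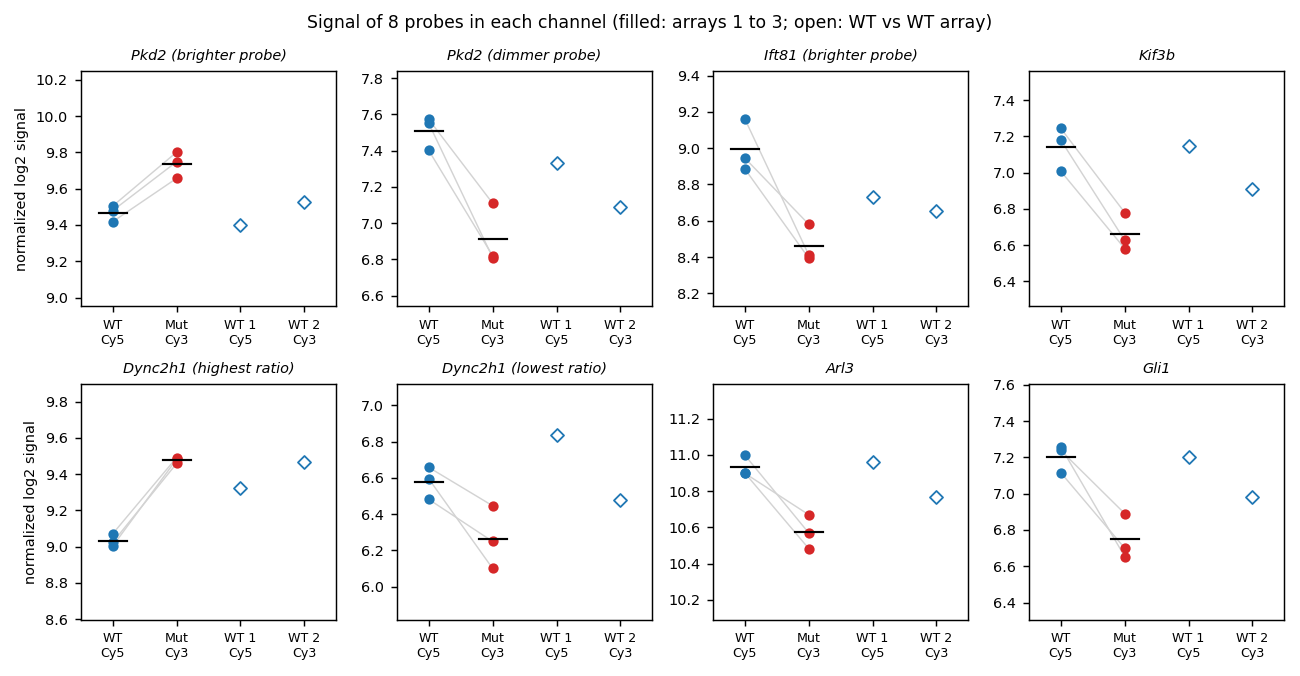
Normalized log2 signal of 8 probes in each channel. Filled points are the *WT* pools in Cy5 (blue) and the *Mut* pools in Cy3 (red) of arrays 1 to 3, joined within an array, with the mean as a black bar, and open diamonds are *WT* pools 1 and 2 on the *WT* vs *WT* array. In each panel the *Mut* and *WT* pools of arrays 1 to 3 lie apart, and at the dimmer *Pkd2* probe *WT* pool 2 (7.09) lies within the range of the *Mut* pools (6.81 to 7.11).

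The IFT-B particle, which carries cargo towards the tip of the cilium, was measured by 17 probes of 8 genes. At the adjusted P 7 probes were lower and 2 higher, where 16.4% of all probes were lower and 13.2% higher, or 25.7% and 22.4% of those above background in both channels. The other 8 did not pass, and 0 were called. The largest change was in *Ift81*, which with its partner binds tubulin as cargo. At its brighter probe (A_52_P459276) the log2 signal was 8.41, 8.39 and 8.58 in *Mut* and 9.16, 8.89 and 8.95 in *WT*. Every *Mut* pool was below every *WT* pool, but *WT* pools 1 and 2 on the *WT* vs *WT* array, at 8.73 and 8.66, lay between the groups. The log2 *Mut*/*WT* of -0.75, -0.49 and -0.36 averaged -0.54 (SE 0.069, adjusted P = 0.000179, limma), a 1.45-fold lower signal, and without array 3 it was -0.62 and also passed 1.5-fold. The other probe of *Ift81* was at -0.13 (adjusted P = 0.0749).

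The remaining IFT-B changes were smaller. *Ift20*, which is also found at the Golgi, was lower at both of its probes, by -0.24 and -0.22 on the log2 scale (adjusted P = 0.0065 and 0.024, limma), but without array 2 neither passed, at -0.19 (adjusted P = 0.0973) and -0.13 (adjusted P = 0.263). *Ift88*, whose mouse hypomorph is a classic model of polycystic kidney disease, had a ratio of -0.17 (adjusted P = 0.038, limma). Single probes of *Ift52* (-0.18), *Ift57* (-0.19) and *Ift172* (-0.23), all subunits of the same particle, were also lower, though without array 1 that of *Ift172* was at -0.12 and did not pass (adjusted P = 0.237, limma). Other probes of these genes did not pass: 1 of *Ift52* was at 0.01, those of *Ift57* at -0.10 and -0.07, and those of *Ift172* at -0.0047 and -0.13. In the opposite direction on the loess scale, and lower with median centring, *Ift46* was at 0.21 (adjusted P = 0.00975, limma) and the brighter probe of *Ift80* at 0.21 (adjusted P = 0.0167). Both are IFT-B subunits too.

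The IFT-A particle, which returns cargo to the cell body, was measured by 4 probes. For *Ift122*, a core IFT-A subunit, the log2 signal was 10.697, 10.61 and 10.52 in *Mut* and 10.44, 10.38 and 10.39 in *WT*. Each *Mut* pool was above each *WT* pool, with a log2 ratio of 0.21 (SE 0.053, adjusted P = 0.0124, limma) that became -0.40 with median centring. Its *WT* vs *WT* ratio was -0.04. Of the probes of *Ift140*, another core subunit, the brightest was at 0.11 (adjusted P = 0.176, limma) and a second at -0.06 (adjusted P = 0.398). The third, where no *Mut* pool was well above background, was at -0.19 (adjusted P = 0.0179, limma). Its bound was 1.04-fold lower in the *Mut* channel, which takes no account of dye. With a dye term the third probe was at -0.10 (adjusted P = 0.719, limma). That probe was at -0.47 with an offset of 0 and -1.59 with the deposited log ratios.

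Ratios of the ciliary motors ran from -0.48 to 0.44. *Kif3a* and *Kif3b* encode the motor subunits of kinesin-II, the anterograde motor. *Kif3b* had a log2 signal of 6.63, 6.58 and 6.78 in *Mut* and 7.18, 7.01 and 7.24 in *WT*, and only 1 of the 3 *Mut* pools was well above background. Its log2 *Mut*/*WT* was -0.55, -0.43 and -0.46, averaging -0.48 (SE 0.053, adjusted P = 6.42e-05, limma), and it was -0.93 with an offset of 0 and -1.38 with the deposited log ratios. All 3 *Mut* pools thus lay below the *WT* pools of arrays 1 to 3, and *WT* pool 2 in Cy3, at 6.91, lay between them. *Kif3a* was at -0.07 (adjusted P = 0.394, limma).

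*Dync2h1*, the heavy chain of the retrograde dynein-2 motor, was held by 6 probes with the same transcript accession, and like *Pkd2* it had probes that passed in opposite directions. At the probe with the highest ratio (A_52_P67849) the log2 signal was 9.48, 9.49 and 9.46 in *Mut* and 9.003, 9.07 and 9.02 in *WT*, a log2 ratio of 0.44 (SE 0.051, adjusted P = 8.49e-05, limma). At the same probe *WT* pool 2 in Cy3 gave 9.47, the level of the *Mut* pools, and *WT* pool 1 in Cy5 gave 9.32 when hybridized together. At the brightest probe (A_52_P102783) the ratio was 0.31 (SE 0.051, adjusted P = 0.000872, limma), and *WT* pools 1 and 2 on the *WT* vs *WT* array, at 9.58 and 9.50, also lay near *Mut* (9.67, 9.56 and 9.54) and above the 3 *WT* signals of arrays 1 to 3 (9.40, 9.22 and 9.20). At the probe with the lowest ratio (A_51_P113242), *Mut* was not well above background. The ratio was -0.49, -0.23 and -0.21, averaging -0.31 (SE 0.063, adjusted P = 0.00317, limma), and -0.97 with an offset of 0 and -2.22 with the deposited log ratios. Its bound was 1.11-fold lower in the *Mut* channel of arrays 1 to 3. That bound takes no account of dye, and the *WT* vs *WT* ratio was -0.36. The other 3 probes did not pass. On arrays 1, 2 and 3 they were at -0.06, 0.05 and 0.04 (mean 0.01), at -0.27, -0.04 and 0.08 (mean -0.08), and at 0.16, 0.14 and 0.08 (mean 0.12). With median centring the 2 probes that were higher turned to -0.11 and -0.25, and with a dye term the lower one turned to 0.05.

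The BBSome, the coat complex mutated in Bardet-Biedl syndrome, and its recruiting GTPase *Arl6* were measured by 11 probes of 7 genes. Of these 2 were lower and 1 higher, and 8 did not pass. Over all probes 16.4% were lower and 13.2% higher, or 25.7% and 22.4% of those above background in both channels. For *Bbs2*, a core BBSome subunit, the log2 signal was 7.47, 7.52 and 7.86 in *Mut* and 8.09, 7.96 and 7.93 in *WT*. The log2 *Mut*/*WT* was -0.62, -0.44 and -0.07, averaging -0.38 (SE 0.085, adjusted P = 0.00574, limma), so arrays 1 and 2 gave most of the change. A dim probe of *Bbs4*, another BBSome subunit, was at -0.40 (SE 0.056, adjusted P = 0.000272, limma), and *Mut*, with a mean of 6.52 against 6.93 in *WT*, was above background on no array, while its brighter probe was at 0.06 (adjusted P = 0.453). The dim probe was at -0.90 with an offset of 0 and -1.45 with the deposited log ratios, so its size is uncertain. *Ttc8* (BBS8) was at 0.18 on the loess scale (adjusted P = 0.0345, limma) and at -0.30 with median centring, and without array 1 it was at 0.12 and did not pass (adjusted P = 0.232). The probes of *Bbs5*, *Bbs7*, *Bbs9* and *Arl6* ran from -0.13 to 0.12 and did not pass.

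*Arl3*, *Arl13b* and *Tulp3* deliver lipid-anchored and membrane proteins to the cilium. For *Arl3*, a GTPase that releases lipidated cargo, the log2 signal was 10.57, 10.48 and 10.67 in *Mut* and 11.00, 10.90 and 10.90 in *WT*. Each *Mut* pool was below each *WT* pool, and the log2 *Mut*/*WT* was -0.36 (SE 0.057, adjusted P = 0.000726, limma), against -0.20 on the *WT* vs *WT* array. *Arl13b*, the GTPase that activates *Arl3*, was lower at 2 of its 3 probes, by -0.28 (SE 0.054, adjusted P = 0.00225, limma) and -0.31 (SE 0.054, adjusted P = 0.00144), and its other probe was at 0.15 (adjusted P = 0.0779). The lower probes of *Arl13b* had *WT* vs *WT* ratios of -0.04 and -0.10. With a dye term these probes were at -0.25 (adjusted P = 0.322, limma) and -0.20 (adjusted P = 0.428). *Tulp3*, an adaptor for membrane receptors, was at 0.15 (adjusted P = 0.0556, limma).

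The transition zone, basal body and inversin compartment were measured by 8 probes, of which 1 passed, where 29.6% of all probes did in either direction. It was the probe of *Nphp4*, a transition zone protein mutated in nephronophthisis. Its log2 signal was 8.14, 8.32 and 8.06 in *Mut* and 7.82, 7.99 and 7.94 in *WT*, a log2 ratio of 0.26 (SE 0.057, adjusted P = 0.00577, limma) that became -0.17 with median centring. *WT* pools 1 and 2 on the *WT* vs *WT* array each gave 8.14, the same as *Mut* pool 1. *Tmem67* (meckelin), a transition zone membrane protein, was at 0.17 (adjusted P = 0.0706, limma), with 0.34 on array 1 and 0.02 on array 3. *Ofd1*, a centriolar satellite and basal body protein, was at -0.01, and the 4 probes of *Rpgrip1l*, a transition zone scaffold, ran from -0.09 to 0.05.

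The Hedgehog effectors were measured by 7 probes of 5 genes, of which 3 were lower and 0 higher, and 4 did not pass. Over all probes 16.4% were lower and 13.2% higher, or 25.7% and 22.4% of those above background in both channels. The 3 lower probes were those of *Ptch1* and *Gli1* and the dimmer probe of *Smo*. *Ptch1*, the Hedgehog receptor and itself a target of the pathway, had a log2 signal of 6.92, 6.96 and 6.94 in *Mut* and 7.27, 7.12 and 7.09 in *WT*. Its log2 *Mut*/*WT* was -0.22 (SE 0.057, adjusted P = 0.0121, limma), but *WT* pools 1 and 2 on the *WT* vs *WT* array, at 6.84 and 6.89, were below all 3 *Mut* pools. *Gli1*, the transcription factor most used as a readout of the pathway, had a log2 signal of 6.65, 6.70 and 6.89 in *Mut* and 7.26, 7.12 and 7.24 in *WT*, with *Mut* well above background on 1 of 3 arrays. All 3 *Mut* pools lay below the *WT* pools of arrays 1 to 3. Its log2 *Mut*/*WT* was -0.60, -0.42 and -0.35, averaging -0.46 (SE 0.060, adjusted P = 0.000197, limma), against -0.22 on the *WT* vs *WT* array. The size of this ratio depended on how the background was treated, at -0.86 with an offset of 0 and -1.29 with the deposited log ratios.

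*Smo*, the membrane protein that passes the signal on, was at -0.12 (SE 0.055, adjusted P = 0.109, limma) by its brighter probe, with overlapping signals of 12.07, 12.29 and 12.46 in *Mut* and 12.29, 12.37 and 12.54 in *WT*. Its dimmer probe was at -0.36 (adjusted P = 0.00597, limma), with -0.66 on array 1 and -0.17 on array 3, and *Mut* was well above background on 1 of 3 arrays. This ratio was -0.21 without array 1, -0.69 with an offset of 0 and -0.94 with the deposited log ratios, and the mean of the *Mut* pools less *WT* pool 2 in the same dye was -0.0042. The brighter probe of *Sufu*, which restrains the GLI factors, was at -0.07, 0.12 and 0.17 on arrays 1, 2 and 3, averaging 0.07 (adjusted P = 0.374, limma), so its arrays differed in direction. *Gli3*, a GLI factor that is also processed to a repressor, was not above background, with ratios of 0.05, -0.04 and -0.00032 averaging 0.0011.

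**Figure D3:**
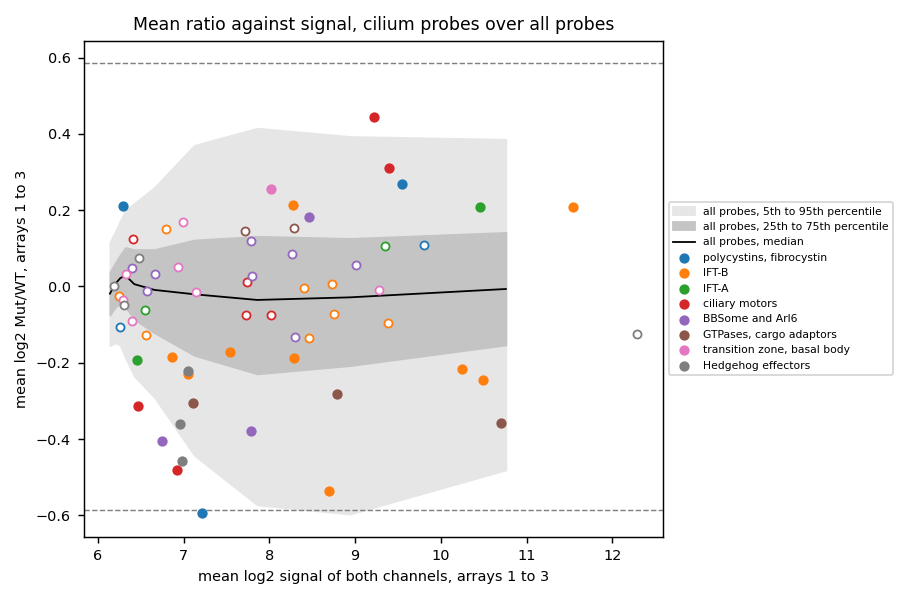
Mean log2 *Mut*/*WT* (vertical) of the 65 probes against the mean log2 signal of both channels on arrays 1 to 3 (horizontal), coloured by role, filled where the adjusted P passed. The bands show the range of all 41166 probes in 10 bins of signal, the black line their median, and the dashed lines 1.5-fold. Most cilium probes lie within the wider band, and those below it include the dimmer probe of *Pkd2*, *Kif3b*, *Gli1* and the dimmer probe of *Bbs4*.

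Probes of the same cilium gene often gave different ratios. For 19 of the 36 genes there were several probes, and in 15 of these (78.9%) the dimmest probe had a lower ratio than the brightest, as it did in 63.2% of the 5303 such genes on the array. Probes passed the adjusted P in opposite directions in 2 of the 19 (10.5%), *Pkd2* and *Dync2h1*, against 6.62% of all such genes. The widest range between probes of a gene was 0.86 on the log2 scale in *Pkd2*, followed by 0.76 in *Dync2h1*, 0.46 in *Bbs4* and 0.45 in *Arl13b*, and the median range was 0.22, against 0.18 over all genes with several probes. For *Bbs4*, *Smo*, *Ift52*, *Ift57*, *Ift140* and *Ift172* the lower ratio that passed was also at a dimmer probe, while for *Ift81* it was at the brighter one. Lower ratios passed at both probes of *Ift20* and at the brightest and dimmest of *Arl13b*. What sets the probes of a gene apart was not tested.

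The *WT* vs *WT* array gave the size of the difference between a pair of *WT* pools in opposite dyes. Its log2 Cy3/Cy5 at the 65 probes ran from -0.36 to 0.22 with a median of -0.04, and was at least as large in size as the mean *Mut*/*WT* ratio at 23 (35.4%, against 48.3% of all probes). Of the 28 probes past the adjusted P this held at 1 (3.57%, against 13.9% of all such probes), the *Dync2h1* probe with the lowest ratio. Those 28 had the same direction on arrays 1, 2 and 3, but they were chosen by a test of these arrays that favours this, so it adds no support. Array 1 gave the largest ratio at 21 of them, and the share over all such probes was not counted. The *WT* vs *WT* array shares *WT* pool 1 and the placing of the dyes with array 1, so no count of shared signs is given.

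*WT* RNA in the dye of the *Mut* pools was measured once, as pool 2 of the *WT* vs *WT* array. Against it the mean of the *Mut* pools in Cy3 differed by -0.35 to 0.23 on the log2 scale, which passed 1.5-fold at 0 of the 65 probes. *Ptch1*, lower on arrays 1 to 3, was at 0.05. *Kif3b* was at -0.25, *Gli1* at -0.23, *Bbs2* at -0.28, *Arl3* at -0.19 and the called probe of *Pkd2* at -0.17, while its brighter probe was at 0.21. These values rest on a single *WT* pool and span arrays, and they were not tested.

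*WT* pool 1, by its number, was hybridized in Cy5 both to array 1 and to the *WT* vs *WT* array. The labels do not say whether this was the same RNA. The signals of this pool on these arrays differed by -0.52 to 0.49 on the log2 scale over the 65 probes, with a median of 0.0028. They differed over 1.5-fold at 0 of the 65 probes and at 398 of all probes. The erythroid sum, 10.69 to 10.84 in *WT* on arrays 1 to 3, was 11.96 for pool 1 on the *WT* vs *WT* array. At the 28 probes past the adjusted P, the *WT* vs *WT* signal of pool 2 in Cy3 lay closer to the mean of the *Mut* pools than to that of the *WT* pools in 15 (53.6%, against 66.5% of all such probes), and that of pool 1 in Cy5 in 8 (28.6%, against 32.0%).

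When limma was fitted over all 4 arrays with a separate dye effect per probe, which the *WT* vs *WT* array alone sets apart from genotype, the fit left 0 of the 65 probes past the adjusted P, where 1.11% of all probes passed in either direction. The lowest adjusted P was 0.104, at the brightest probe of *Dync2h1*, and 11 probes had an unadjusted P under 0.05, 7 lower (10.8%, against 8.23% of all probes) and 4 higher (6.15%, against 6.43%). The 7 were of *Ift81*, *Pkd2*, *Kif3b*, *Bbs4*, *Arl13b*, *Ptch1* and *Smo*, and the 4 of *Dync2h1* (both higher probes), *Ift122* and *Nphp4*. That of *Smo* was its brighter probe, which did not pass the adjusted P without the term. The term rests on 1 array, and the median SE of the 65 probes doubled from 0.0545 to 0.109. The called probe of *Pkd2* was at -0.35 (adjusted P = 0.208), *Ift81* at -0.46 (adjusted P = 0.152) and *Gli1* at -0.23 (adjusted P = 0.402).

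**Figure D4:**
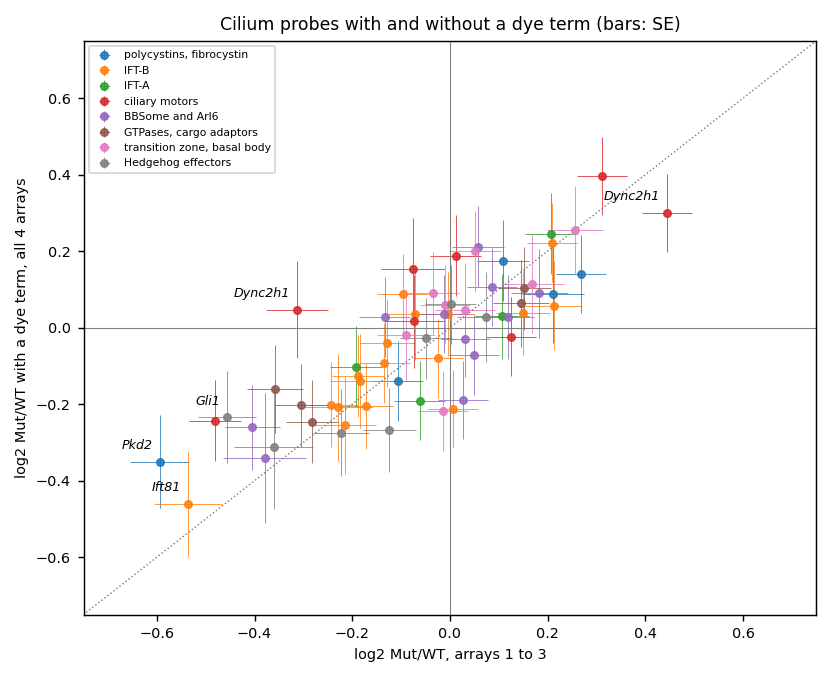
Log2 *Mut*/*WT* of the 65 probes from arrays 1 to 3 (horizontal) against the value with a dye term from the *WT* vs *WT* array (vertical), coloured by role, with SE bars. The dotted line marks equal values. The called *Pkd2* probe is at -0.59 without and -0.35 with the term, and the vertical bars are longer than the horizontal ones, with a median SE of 0.109 against 0.0545.

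Further genes of the cilium and of the Hedgehog pathway were counted in the same fit to set the 65 probes in context. Of 93 probes of 63 such genes, 16 were higher and 18 lower at the adjusted P, where 13.2% and 16.4% of all probes were, 59 did not pass, and the median log2 *Mut*/*WT* was -0.02. For other IFT and motor genes 4 of 22 probes were higher and 4 lower, for other BBSome, chaperonin and trafficking genes 2 of 18 were higher and 8 lower, for other transition zone and basal body genes 7 of 31 were higher and 4 lower, and for other Hedgehog genes 3 of 22 were higher and 2 lower. A single gene was called, *Rab8a*, the GTPase that brings vesicles to the growing cilium, where 1.46% of all probes were called lower and 0.551% higher. It had a log2 ratio of -1.08, -0.87 and -0.48, averaging -0.81 (SE 0.089, adjusted P = 6.25e-05, limma), against -0.15 on the *WT* vs *WT* array. This is its brighter probe, and it no longer passed with the dye term (-0.66, adjusted P = 0.116, limma). The other probe of *Rab8a* was at -0.10 (adjusted P = 0.226).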

How the data were processed

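The authors scanned each array and deposited scanner files, made per the file headers with version 10.7.3.1 of Agilent Feature Extraction, with the intensity of both channels and of the local background per spot, not normalized. The deposited log10 ratios of red over green, which the authors made with that program by background subtraction and dye normalization, served as an alternative, and the table of the series holds the same log10 ratios. The paper's GeneSpring values were not analysed here.

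Median signal and background were corrected by normexp (offset 50), ratios were put through within-array loess, control spots and outlier spots (122 to 162 per array) were left out, and spots of a probe were averaged. Single channels were normalized by Aquantile. Being well above background is the scanner program's mark. Ratios were fitted with limma 3.58.1 (lmFit, eBayes) in R 4.3.3, P values being adjusted by Benjamini-Hochberg over all 41166 probes tested, and the steps were tested on simulated data. The number of arrays limits the precision. Pools of an array carry the same number, and their deviations from the group means correlated at 0.388, 0.431 and 0.320. Symbols came from accessions matched to RefSeq genes of GRCm38.p6, for 22951 of 41174 probes (55.7%). Where *Mut* was above background on no array, a bound takes, on each array, the dim signal itself or the lowest signal of any probe above background, whichever is higher. A bound takes no account of dye. The members, classes and lists were chosen with earlier results of these data known. Values by array are given for probes called, for the probe with the largest change in each class among those above background, for polycystin and Hedgehog genes, and for genes with probes past the adjusted P in opposite directions, and for *Kif3b*, chosen after its values were seen. Alternatives were the offset, median centring, the deposited ratios, a dye term, leaving out dim probes, keeping outlier spots, unpaired channels, leaving out each array, the methods' *t*-test, the fold minimum and the median over probes.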

Additional observations from a re-analysis of the deposited data

How the results depend on the processing

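Over all probes 827 were called, and 2705 with the deposited log ratios, 323 with the dye term, 12187 with no fold minimum, and 0 with an offset of 0, with median centring or with the methods' *t*-test after adjustment (691 at its unadjusted P). With the deposited ratios 1489 of the calls were higher and 1216 lower, against 227 and 600. Of the 65 cilium probes, 1 (*Pkhd1*) was called higher and 2 (*Bbs4* and *Sufu*) lower with the deposited ratios, and 9 and 19 with no fold minimum. The call of *Pkd2* was lost with the deposited ratios (-1.34, adjusted P = 0.0606), and lost leaving 0 lower with an offset of 0 (-0.98, adjusted P = 0.111), median centring (-0.87, adjusted P = 0.0839), the dye term (-0.35, adjusted P = 0.208) and the adjusted *t*-test (-0.59, adjusted P = 0.161). Leaving out each array gave 606 to 1207 calls over all probes and 0 to 2 lower cilium probes, 0 without array 1 and 2, with *Ift81*, without array 3. The 28 probes past the adjusted P became 7 with the deposited ratios, 0 with an offset of 0, median centring, the dye term or the adjusted *t*-test, and 17 to 29 without 1 array, the lowest without array 2. Unpaired channels, without the replicate block, gave 20 and the same *Pkd2* call. The median of -0.025 was -0.38 with median centring, where that of all probes was 0.0096, -0.062 with the dim filter and 0.016 with the dye term. Probes of like signal were not compared under median centring. With a gene's probes reduced to their median, 0 genes were called.

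Median centring turned *Pkd1* to -0.48, the brighter *Pkd2* probe to -0.30, *Ift122* to -0.40, 3 probes of *Dync2h1* to -0.25, -0.11 and -0.38, and *Nphp4* to -0.17. The dye term turned 3 other probes of *Dync2h1* to 0.15, 0.046 and -0.024. Values near 0 also changed sign: with 1 array left out, a probe of *Dync2h1* ran from -0.0089 to 0.047, another from -0.15 to 0.019 and *Gli3* from -0.021 to 0.022, and *Gli3* was at -0.10 with the deposited ratios and -0.0046 with outlier spots kept. The cause of these changes was not tested. Probes near background carry the least certain ratios.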

Other observations

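Of 11 probes of 9 motile cilium genes, 1 passed the adjusted P, where 29.6% of all probes did in either direction. It was the probe of *Spag6* (log2 ratio 0.15, adjusted P = 0.0438, limma), which was above background in no pool. *Foxj1*, the transcription factor that switches on motile ciliogenesis, was above background in both channels at a log2 ratio of -0.14 (adjusted P = 0.0736, limma).

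The RFX factors bind the promoters of many cilium genes. At the adjusted P their 12 probes of 6 genes gave 3 lower and 1 higher, against 16.4% and 13.2% of all probes. The 3 were all of *Rfx7*, at -0.33, -0.44 and -0.22 (adjusted P = 0.000651, 0.000105 and 0.0177, limma), and its ratios on the *WT* vs *WT* array were -0.28, -0.34 and -0.18, so that with the dye term they were -0.04, -0.10 and -0.04. *Rfx3*, an RFX factor known for its role in ciliogenesis, was at -0.02 and -0.09 and did not pass.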
